A study of Mus musculus with 8 samples.

Results

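The genes described here belong to the machinery that moves proteins between membranes of the cell: the Rab and Arf GTPases, the translocon and coat genes of the early secretory route, the SNAREs of the Vamp and syntaxin families, and the Vps and sorting nexin genes of endosomes. They were chosen by gene symbol: symbols of the form Rab, Arf, Vps or Snx with a number, and symbols starting with Sec22, Sec23, Sec24, Sec61, Sec62, Sec63, Copa, Copb, Copg, Copz, Vamp or Stx with a number. The rule found 113 of the 8251 genes that had a probe set naming them alone. They were read by 153 probe sets. For the 34 genes with several probe sets the brightest was used, and 79 genes had 1. A filter at the median level of all probe sets kept 87 of the 113, among 4810 kept genes in all. A symbol rule is not a function: Vps72 is known as a subunit of chromatin complexes, and Rab10os and Rab26os are long non-coding RNAs in the RefSeq gene table. Sec61g and Vps25 were named only by probe sets that also name other genes, and are not among the members.

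Liver RNA of 8 female Ames mice was hybridised to 8 Affymetrix U74Av2 arrays, on which a gene is read by sets of short oligonucleotide probes. The animals were phenotypically normal (+/+ or +/df, which the labels do not tell apart), received 30% less food than normal females of the same stock ate freely, and were 24 to 26 months old when killed. The allele df causes pituitary dwarfism when both copies carry it. All 8 animals form 1 group, so no diet, genotype or age contrast exists in these values, and each result is a level or a spread between animals. Each label names its own mouse, and the spread between arrays holds animal and technical differences together. Levels are signals in arbitrary units after quantile normalization, given as mean ± SD, and n is 8 unless another number of arrays is named. Signals of different genes are not compared, since each probe set binds with its own strength. Whole liver holds several cell types, and in such bulk RNA fewer cells of a type and less RNA per cell cannot be told apart.

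A secreted protein enters the endoplasmic reticulum through the Sec61 translocon, leaves it in vesicles coated by COPII, and is returned from the Golgi, where needed, in vesicles coated by COPI, whose assembly is started by Arf GTPases. Rab GTPases mark each membrane and recruit the factors that move and tether vesicles, and SNARE proteins on both membranes then pair to fuse them. Retromer, the GARP and HOPS tethers, the ESCRT complexes and the sorting nexins sort proteins on endosomes for recycling or for the lysosome. Hepatocytes rely on this machinery to export albumin, lipoproteins and clotting factors and to recycle receptors between the blood and bile faces of the cell.

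Replicate 5 stood apart from the other arrays, and replicate 6 less so. The log2 ratio of the 3′ over the 5′ control probe set of Gapdh was 4.35 on replicate 5 and between -0.24 and 0.33 on the others. For pyruvate carboxylase it was 4.33 on replicate 5, 4.30 on replicate 6 and 1.42 to 2.76 on the others. The median correlation with the other arrays was 0.881 for replicate 5, 0.943 for replicate 6 and 0.962 to 0.974 for the rest, and no pair of arrays held identical values. The defining markers of hepatocytes were bright on every array: the summed signal of the 5 measured markers of 6 listed lay between 112602 and 117567. The summed signal of macrophage markers (8 of 9 listed on the array, 6 kept) read 4175 on replicate 5, whereas the arrays outside replicates 5 and 6 gave 5568 to 6716, and that of erythroid markers (3 of 5 on the array, 2 kept) was 2844 on replicate 6 and 6752 to 7783 on the other arrays outside 5. Within the macrophage list, C1qa read 79.96 on replicate 5, the lowest of its arrays, and Csf1r read 933, the highest of its arrays. For some results below that rest on replicate 5 or 6, the value without these arrays is given beside them. Others are given over all 8 arrays alone.

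Upstream sequence was searched because 2 short elements are known to link promoters to membrane routes. The UPRE core is used by the unfolded protein response of the endoplasmic reticulum. A CLEAR-like element is bound by the lysosomal regulator TFEB and its relatives. RefSeq promoter windows of build GRCm38.p6, from 250 bases before to 50 bases after each start site, were matched for 95 of the 113 members by gene identifier. Both strands were searched. The letters TGACGTG (UPRE core) were present in 6 of the 95 members (6.32%), in 3.26% of the 6573 genes on the array with a window and in 2.22% of all 27025 genes. The CLEAR-like element, the palindrome of 10 letters in capitals under its name below, was present in 5 members (5.26%), against 0.715% and 0.37%. CACGTG, an E-box that lies inside each CLEAR-like match, was present in 15 members (15.8%), against 11.5% and 8.09%. The endoplasmic reticulum stress element (ERSE) was present in 0 members and in 0.183% of genes on the array. A match is a run of letters and not a site of binding. The stretches below show, in capitals, the matches of kept genes that lie wholly before the most upstream start site listed for the gene, each read along the gene's own strand.

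Rab21, chr10:115315592-115315651, minus strand, CLEAR-like: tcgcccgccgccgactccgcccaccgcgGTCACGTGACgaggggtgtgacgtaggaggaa
Rab5a, chr17:53479112-53479171, plus strand, CLEAR-like: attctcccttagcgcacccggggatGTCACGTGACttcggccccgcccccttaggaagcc
Vps26a, chr10:62486955-62487014, minus strand, CLEAR-like: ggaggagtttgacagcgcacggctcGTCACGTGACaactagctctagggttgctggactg
Copb1, chr7:114254681-114254740, minus strand, UPRE core on the other strand: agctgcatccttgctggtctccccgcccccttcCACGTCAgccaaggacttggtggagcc
Rab5if, chr2:156863058-156863117, plus strand, UPRE core on the other strand: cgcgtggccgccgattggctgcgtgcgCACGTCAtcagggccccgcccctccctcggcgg

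The CLEAR-like match lay 32 bases before the start site in Rab21 and 97 bases before it in Rab5a. In Vps26a the match shown lay 184 bases before the upstream start site, and another lay 153 bases before a downstream one. Rab24 and Vps16 held the remaining matches. On replicate 5, among the 4 kept genes with a CLEAR-like match, Rab5a and Rab21 were highest and Rab24 was lowest. Vps26a, at 602, lay within the 424 to 799 of the other arrays. Of the 6 genes with a UPRE core, all kept, the brightest probe sets of Copb1, Rab5if and Sec23a were highest on replicate 5. Those of Arf1, Copb2 and Stx5a were lowest on it. The other kept probe sets of Copb2 (1207, highest) and Sec23a (213, lowest) took the opposite side there. Of all kept genes, 34.1% were highest on replicate 5 and 28.3% were lowest on it.

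Without replicates 5 and 6, most vesicle traffic genes ranged less than 2-fold between animals. The coefficient of variation over 8 arrays had a median of 20.1% over the 87 kept members and 19.1% over the 4810 kept genes, and without replicates 5 and 6 it was 12.3% and 12.9%. From the lowest to the highest array the members ranged between 1.17-fold (Rab11b) and 9.29-fold (Rab5b). The fold of Rab5b rests on a lowest value of 45.5, near the floor of 24.6 to which low values were raised. A range over 2-fold was found for 32 of 87 members (36.8%), beside 37.2% of all kept genes. On the 6 arrays other than 5 and 6 it was found for 8 members (9.20%), beside 10.1% of all kept genes. Both shares lay near the background of all genes.

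**Figure D1:**
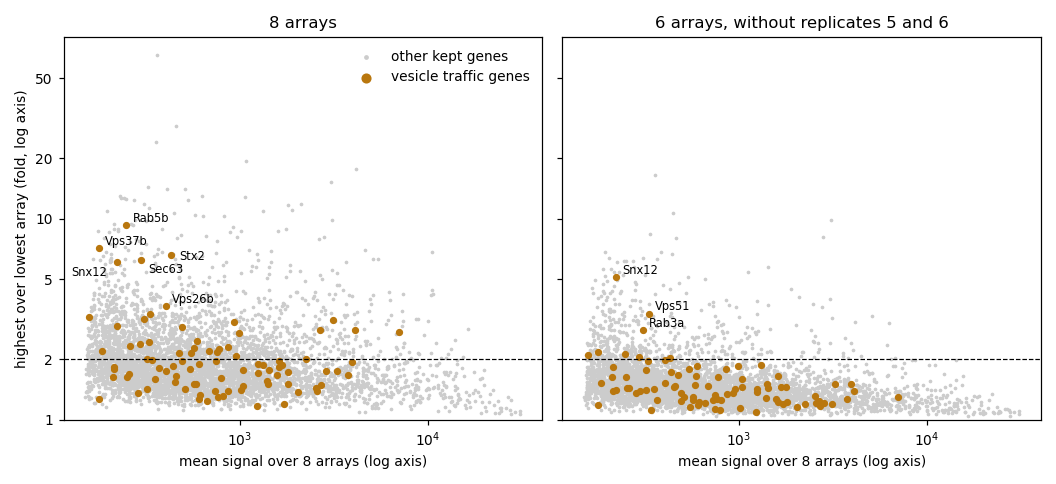
Fold from the lowest to the highest array (log axis) against mean signal over 8 arrays in arbitrary units (log axis) for the 87 kept vesicle traffic genes (orange) and all other kept genes (grey), over 8 arrays on the left and over the 6 arrays other than replicates 5 and 6 on the right; the dashed line is 2-fold. The members lie among the other genes, with 32 above the line on the left and 8 on the right.

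Replicate 5 held the lowest or highest value of many members, in shares near those of all kept genes. It was the lowest array for 27 of 87 members, beside 28.3% of all kept genes, and the highest for 35, beside 34.1%. Replicate 6 was lowest for 14 members, beside 16.6%, and highest for 19, beside 18.8%.

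**Figure D2:**
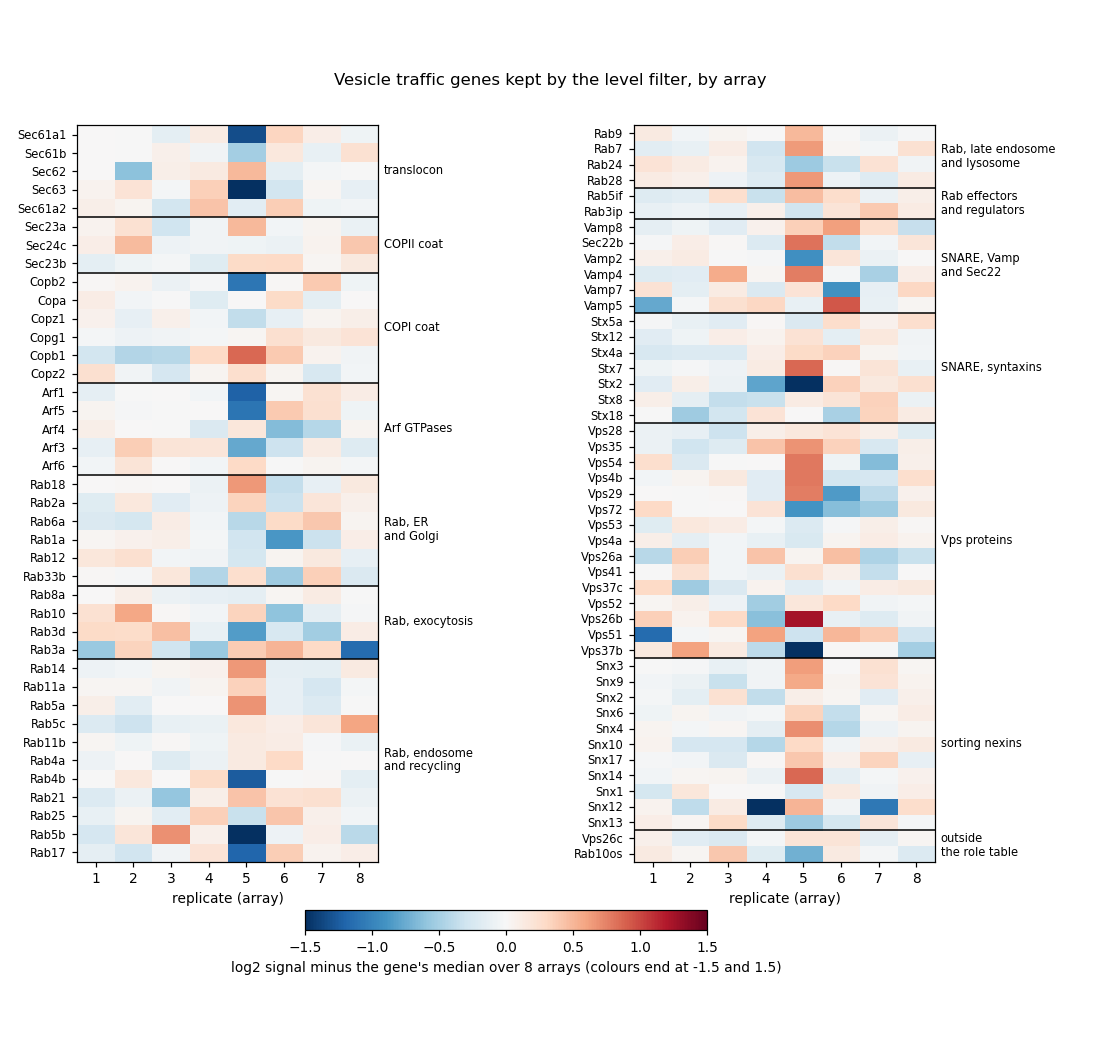
Log2 signal of each of the 87 kept members on each array minus the gene's median over the 8 arrays, with genes in rows by role and replicates in columns; red is above and blue below the median, and colours end at -1.5 and 1.5. The column of replicate 5 holds the deepest colours of both kinds, as in Sec61a1, Arf1 and Stx2 (blue) and Vps26b (red).

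Each probe set's variance was set against limma's prior variance for probe sets of like level by an F test. No member passed at a Benjamini-Hochberg adjusted p of 0.05. The test called 0 of 6211 probe sets (0%), and the lowest adjusted p of a member was 0.842. At an unadjusted p of 0.05 it marked 4 of 87 members, beside 4.84% of genes and 5.67% of probe sets: Stx2, Rab5b, Sec63 and Snx12. Without replicates 5 and 6 it again called 0 members and marked 2. Over 8 arrays the lowest values of Rab5b (45.5), Sec63 (65.4) and Snx12 (58.3) lay below 91.2, a higher floor used as an alternative. The test called only very large spreads in simulated data of this design, so 0 calls does not show that the animals were alike. Variance lay above that of like transcripts for 48 of 87 members, beside 52.6% of genes.

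Among the 5 translocon genes, all kept, the channel subunit Sec61a1 had the lowest signal on replicate 5. Its signal was 1297 at the lowest, 3260 at the median and 4076 at the highest, with a mean of 3124 ± 813. Replicate 5 lay below all others, and the arrays other than 5 and 6 spanned 2950 to 3549, 1.20-fold. The other kept probe set of Sec61a1 was instead highest on replicate 5, at 2322. Sec63, which recruits the chaperone Hspa5 to the channel, read 65.4 on replicate 5, 320.4 at the median and 409.6 on replicate 4. Without replicates 5 and 6 it spanned 294 to 410, and its unadjusted p of 0.0331 (F test on limma's prior, adjusted p 0.864) came with replicate 5 included. The small channel subunit Sec61b ran from 1117 on replicate 5 over a median of 1586 to 1862 on replicate 8. Sec62 is a second accessory factor of the channel. Its brightest probe set went the other way, with 659 on replicate 5 at the top. That probe set read 470.1 at the median and 308 on replicate 2 at the bottom. Of the other kept probe sets of Sec62, the brighter read 293 on replicate 5, near its lowest value of 289 on replicate 8. The dimmer read 239 on replicate 5, near its highest value of 245 on replicate 8. Their correlations with the brightest over the 8 arrays were -0.29 and 0.40. The median deviation of the 5 genes from their own means was -0.48 on replicate 5 on the log2 scale and between -0.02 and 0.25 on the other 7 arrays; for all kept genes it was 0.05 on replicate 5.

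Of the COPII coat genes 3 of 5 were kept, and none ranged over 2-fold. Sec23a, the inner coat subunit that stimulates the GTPase Sar1, ran from 1399 on replicate 3 over a median of 1728 to 2424 on replicate 5. Its other kept probe set was lowest on replicate 5, at 213. Sec24c, a subunit that selects cargo, ran from 904 on replicate 6 over a median of 961 to 1331 on replicate 2. Its second highest value, 1275 on replicate 8, also stood above the 904 to 1028 of the remaining 6 arrays. Sec23b spanned 625 to 871, with replicates 5 and 6 at the top.

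COPI coat genes, 6 of 6 kept, split on replicate 5 by their brightest probe sets. Copb2 encodes the β′ coat subunit and Copb1 the β subunit. Copb2 had its lowest signal there, 1993, with a median of 4241 and a highest value of 5557 on replicate 7. Copb1 had its highest there, 996, with a median of 548 and a lowest value of 405 on replicate 2. Without replicates 5 and 6, Copb2 spanned 3995 to 5557 and Copb1 405 to 672. The other kept probe set of Copb2 was instead highest on replicate 5, at 1207 (r = -0.93 between the probe sets over 8 arrays). The α subunit gene Copa, at 2564 ± 269.8, and Copg1, at 667 ± 58.4, had coefficients of variation of 10.5% and 8.77%. The other kept probe set of Copg1 had an r of -0.30 with the brightest over 8 arrays. For the small subunit genes Copz1 and Copz2 the ranges were 1.38-fold and 1.42-fold.

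Arf GTPases recruit COPI and clathrin adaptors to the Golgi, and 5 of 6 were kept. Arf1 read 3186 on replicate 5, 7415 at the median and 8722 on replicate 7. Its other 7 arrays lay between 6741 and 8722, and the 6 arrays other than 5 and 6 spanned 1.29-fold. Arf5 likewise read 1260 on replicate 5, 2692 at the median and 3525 on replicate 6. Arf3 was lowest on replicate 5 too, at 408, with a median of 700.2 and a highest value of 898 on replicate 2. The other kept probe set of Arf3 read 363 on replicate 5 and was lowest on replicate 7 at 314. Arf4 was instead highest on replicate 5 at 1736 and lowest on replicate 6 at 985. Arf6, which acts at the plasma membrane, was steady at 179 ± 16.5. The class median was -0.71 on replicate 5 and between -0.06 and 0.19 on the others, and without replicates 5 and 6 none of the 5 genes ranged over 2-fold. On replicate 5 that median was the deviation of the brightest probe set of Arf3.

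**Figure D3:**
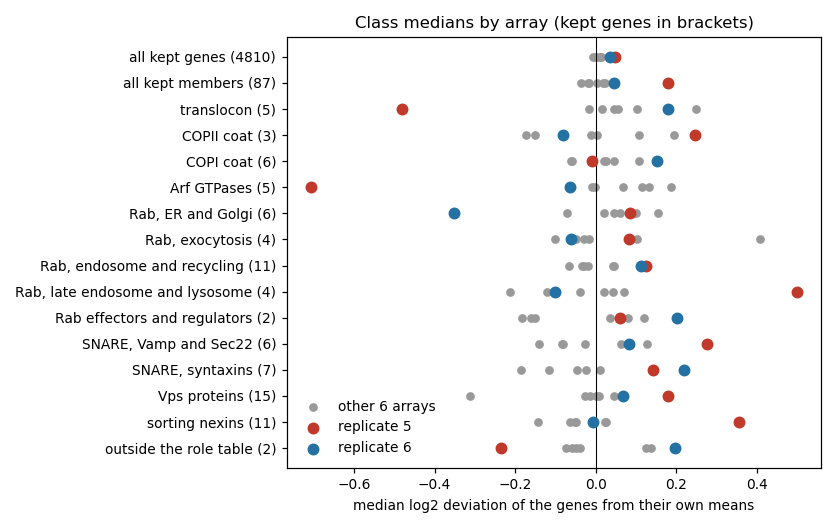
Median log2 deviation of the kept genes of each class from their own means, 1 point per array, with replicate 5 in red, replicate 6 in blue and the other 6 arrays in grey; the number of kept genes is in brackets. Arf GTPases (-0.71) and the translocon (-0.48) lie low on replicate 5, the late endosome Rabs (0.50) and sorting nexins (0.35) lie high on it, and all kept genes lie at 0.05.

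Of the Rab genes of the endoplasmic reticulum and Golgi, 6 of 7 were kept, and 4 of the 6 had their lowest value on replicate 6, beside 16.6% of all kept genes. Rab1a, which acts between these compartments, read 444 on replicate 6, 816 at the median and 871 on replicate 8. Its next lowest value was 655 on replicate 7. Rab18, found on the endoplasmic reticulum and lipid droplets, ran from 1692 on replicate 6 over a median of 2163 to 3399 on replicate 5, while the arrays other than 5 and 6 spanned 1991 to 2385. Rab2a ran from 1105 on replicate 6 to 1731 on replicate 5, and Rab33b from 307 on replicate 6 to 569.5 on replicate 7. The other kept probe set of Rab33b took the opposite side, with its highest value, 309, on replicate 6 (r = -0.83 between the probe sets over 8 arrays). Rab6a, of the Golgi, was lowest on replicate 5 at 773 and highest on replicate 7 at 1363. The class median was -0.35 on replicate 6 and between -0.07 and 0.15 on the others. On that array the summed erythroid markers were also low, as given above. Endothelial markers (4 of 5 on the array, 3 kept) summed to 647 there, against 877 to 1156 on the other 7, and neutrophil markers (6 of 6 on the array, 2 kept) to 927, against 486 to 746. Within the endothelial list, Cdh5, Kdr and Tek were lowest on replicate 6, while Pecam1 read 183, within its 31.9 to 193. Within the neutrophil list, Camp, Elane, S100a8 and S100a9 were highest there, Mpo lay between its extremes, and Ltf was lowest at 27.2. The part of these markers in the result was not tested.

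Rab genes of exocytosis, 4 of 7 kept, ranged from steady to widely spread. Rab8a, which directs vesicles to the cell surface, was 1729 ± 117, a 1.20-fold range. Rab10, its close relative, ran from 484 on replicate 6 over a median of 733 to 1093 on replicate 2. Rab3d and Rab3a are known from regulated secretion, in exocrine cells and in neurons. Rab3d ran from 188 on replicate 5 over a median of 336 to 458 on replicate 3. Rab3a ran from 143 on replicate 8 over a median of 323 to 451 on replicate 6, and without replicates 5 and 6 it still ranged 2.81-fold, from 143 to 400.1. Its values lay at 389 to 451 on replicates 2, 5, 6 and 7 and at 143 to 257 on the other 4. The class median was 0.41 on replicate 2 and between -0.10 and 0.10 on the others. The summed signal of exocrine pancreas markers was also highest on replicate 2, at 4559 against 2123 to 3935 on the other arrays (8 of 13 listed on the array, 5 kept, Prss2 at the floor on all 8); that of neuron markers (7 of 8 on the array, 2 kept) was 1075 there, within 953 to 1292 over all arrays. Within the pancreas list, Reg1 read 1968 on replicate 2 and 30.2 to 200.1 on the other arrays, whereas Cela1 was highest on replicate 7 at 1827. The part of either list in the result was not tested.

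Rab genes of early and recycling endosomes formed the largest Rab class, with 11 of 14 kept. Rab5 proteins organise early endosomes, and their 3 genes differed in spread. Rab5b ran from 45.5 on replicate 5 over a median of 264 to 423 on replicate 3, a 9.29-fold range. Its unadjusted p was 0.0275 (F test on limma's prior, adjusted p 0.853). Without replicates 5 and 6 it spanned 199 to 423, 2.13-fold. Rab5a was instead highest on replicate 5, at 2467, above a median of 1545 and a lowest value of 1342 on replicate 7. Rab5c was highest on replicate 8 at 1903 and spanned 1019 to 1435 on the others. Among recycling Rabs, Rab11a was 1815 ± 226 and Rab11b 1230 ± 69.7, the smallest coefficient of variation among the kept members at 5.66%. Rab4b read 218 on replicate 5 and 465 to 631 on the others, whereas its relative Rab4a read 1108 there, within its 882 to 1241. Rab14, which acts between the Golgi and endosomes, was highest on replicate 5 at 4243, against 2439 to 2957 on the others. Its other probe sets, both below the level filter, were lowest there, at 82.8 and at the floor of 24.6. Rab17, an epithelial Rab, was lowest there at 102, against 189 to 298.

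Late endosome and lysosome Rabs, 4 of 5 kept, were mostly high on replicate 5. Rab7, which controls fusion with the lysosome, ran from 972 on replicate 4 over a median of 1186 to 1839 on replicate 5. Its other kept probe set was lowest on replicate 5, at 187. Rab9, which acts in return from late endosomes to the Golgi, ran from 2412 on replicate 7 over a median of 2571 to 3587 on replicate 5. Rab28 was highest there as well, at 551 against 306 to 382 on the others. Rab24, linked to autophagy, was lowest there, at 885 against 1027 to 1506. None of these 4 genes ranged over 2-fold. The class median was 0.50 on replicate 5 and between -0.21 and 0.07 on the others. Of the genes classed here as Rab effectors and regulators 2 of 4 were kept, and whether Rab5if acts as one was not tested. Rab5if spanned 2481 to 4331, and Rab3ip, an activator of Rab8, spanned 283 to 452.

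The Vamp and Sec22 SNAREs, 6 of 8 kept, had the largest share of genes with a wide range among these classes. On 8 arrays 5 of 6 ranged over 2-fold, beside 37.2% of all kept genes. Without replicates 5 and 6 it was 2 of 6, beside 10.1%. Vamp8, of endosomes and secretory granules, ran from 2897 on replicate 8 over a median of 3675 to 5613 on replicate 6. Its second probe set correlated with it over the 8 arrays (r = 0.86), though both carry a suffix that marks shared sequence. Sec22b, of the route between endoplasmic reticulum and Golgi, ran from 414 on replicate 6 over a median of 535 to 938 on replicate 5. Vamp4, of the trans-Golgi network, ran from 194 on replicate 7 over a median of 272 to 463 on replicate 5, and its value of 400.0 on replicate 3 kept a 2.06-fold range without replicates 5 and 6. The other kept probe set of Vamp4 read 108 on replicate 3, the lowest of its 8 arrays. Vamp7, a lysosomal SNARE, was lowest on replicate 6 at 143 against 229 to 332 on the others, but its other kept probe set read 188 there, within its 75.6 to 213 (r = -0.32). Vamp5 ran from 85.3 on replicate 1 over a median of 145 to 277 on replicate 6. Vamp2, a partner in fusion at the cell surface, was lowest on replicate 5 at 300.2, and without replicates 5 and 6 spanned only 533 to 618.

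Among syntaxins, 7 of 10 kept, Stx2 stood out. Stx2 encodes a SNARE of the plasma membrane. It read 92.9 on replicate 5, 481 at the median and 610.4 on replicate 6, with a second low value of 279 on replicate 4. Its unadjusted p of 0.0190 was the smallest among members (F test on limma's prior, adjusted p 0.842). Without replicates 5 and 6 its range was 2.04-fold. Stx7, of late endosomes, was highest on replicate 5 at 803 and spanned 409 to 507 on the others. The Golgi syntaxin Stx5a was 871 ± 109 and the endosomal Stx12 810.0 ± 79.3. Stx4a spanned 476 to 716, Stx8 196 to 319 and Stx18 153 to 279.

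Vps genes were the largest class, with 15 of 19 kept, and can be read by complex. Retromer recycles receptors from endosomes: its subunit genes Vps35, Vps29 and Vps26b were highest on replicate 5, and Vps26a was not. Vps29 read 1603 on replicate 5, 939.5 at the median and 522 on replicate 6, so that both outlying arrays were its extremes. Without them it spanned 717 to 979. Vps35 read 2359 on replicate 5, 1481 at the median and 1202 on replicate 2. Vps26b read 824 on replicate 5, 346 at the median and 225 on replicate 4, the largest coefficient of variation among the kept members at 45.3%. Without replicates 5 and 6 its coefficient of variation was 23.4%. Its paralog Vps26a took values of 754 to 799 on replicates 2, 4 and 6 and of 424 to 602 on the other 5 arrays.

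The GARP tether returns vesicles to the Golgi, and its 4 subunit genes had their extremes on different arrays. Vps51 ran from 145 on replicate 1 over a median of 322 to 489 on replicate 4, and its 3.38-fold range did not involve replicates 5 or 6. Vps54 was highest on replicate 5 at 1630 and lowest on replicate 7 at 603. Vps53 was steady at 771 ± 69.7, and Vps52 spanned 282 to 495. Of the ESCRT genes, which sort proteins into the lysosomal lumen, Vps37b read 41.2 on replicate 5, 193 at the median and 294 on replicate 2. Vps28 was 2538 ± 316 and Vps37c spanned 383 to 681. The ATPases that take ESCRT apart also differed: Vps4b was highest on replicate 5 at 1531 against 735 to 1059, and Vps4a was 609.6 ± 50.3. Vps41, of the HOPS tether, spanned 451 to 679. The chromatin gene Vps72 was low on replicates 5, 6 and 7, at 502 to 648, against 929 to 1153 on the other 5. The class median was -0.31 on replicate 7 and between -0.03 and 0.18 on the others.

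Sorting nexins bind phosphoinositides of endosomal membranes, and 11 of 14 were kept. Of these, 8 had their highest value on replicate 5, beside 34.1% of all kept genes. Snx3, an adaptor of retromer, read 5371 on replicate 5, 3492 at the median and 3232 on replicate 3. Snx9, which acts in endocytosis, read 2367 on replicate 5, 1602 at the median and 1266 on replicate 3. Snx4, of the recycling route, read 1177 on replicate 5, 728 at the median and 541 on replicate 6, and without these arrays spanned only 662 to 748. Snx14 and Snx6 showed like narrow ranges without them, 296 to 331 and 753 to 847. Snx2 was 1417 ± 178 and Snx17 455 ± 70.0. A probe set of each, below the level filter, correlated below 0 with the brightest (r = -0.82 and -0.41). That of Snx2 was at the floor on 6 arrays, and the other kept probe set of Snx2 had an r of 0.60. Snx12, a close relative of Snx3, also varied on the arrays other than 5 and 6: it read 58.3 on replicate 4 and 118 on replicate 7, and the other 6 arrays gave 191 to 354. Its range without replicates 5 and 6 was 5.14-fold, the widest of any kept member on those arrays. Its unadjusted p was 0.0482 (F test on limma's prior, adjusted p 0.875). A second probe set of Snx12 read 179.5 on replicate 4 and 167 on replicate 7, a narrower drop from its other arrays, and its lowest value was 118 on replicate 5. The class median was 0.35 on replicate 5 and between -0.14 and 0.03 on the others.

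**Figure D4:**
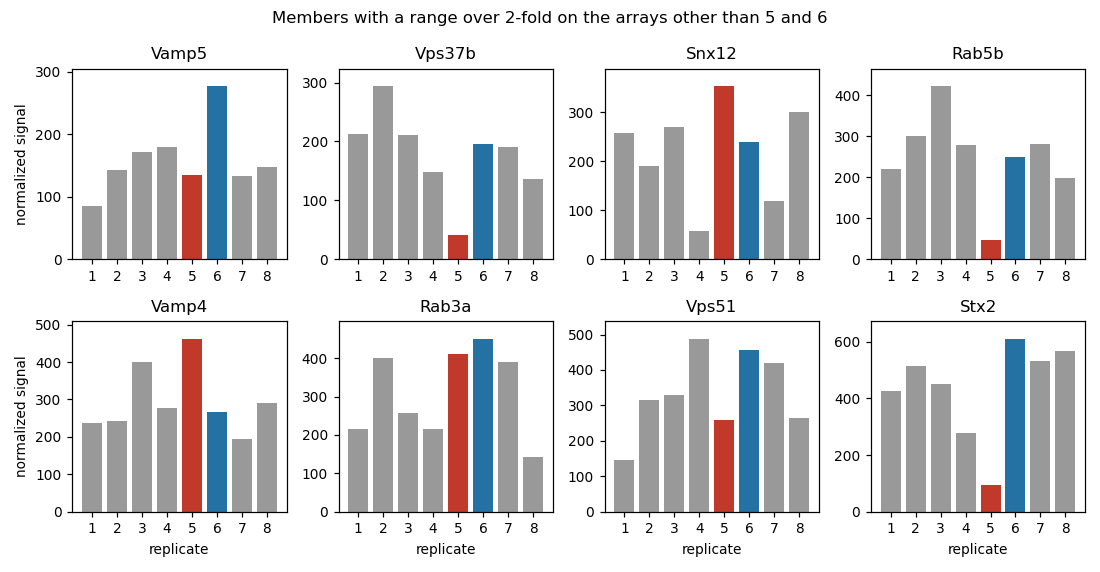
Normalized signal (arbitrary units, axis from 0) on each of the 8 arrays for the 8 members whose range exceeds 2-fold without replicates 5 and 6; red is replicate 5, blue replicate 6 and grey the other arrays. Snx12 is low on replicates 4 and 7 (58.3 and 118), and Rab5b, Vps37b and Stx2 are lowest on replicate 5.

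Beside these classes, Vps26c, a subunit of the retriever complex, was 616 ± 67.5, and the non-coding Rab10os was 186 ± 39.9. The 26 members below the level filter were Arf2, Sec23ip, Sec24b, Rab3il1, Rab11fip5, Rab33a, Rab20, Rab31, Rab35, Rab23, Rab8b, Rab3b, Rab34, Vamp3, Vamp1, Stx6, Stx1a, Stx3, Vps16, Vps45, Vps37a, Vps13c, Rab26os, Snx5, Snx27 and Snx21. Their mean signals lay between 24.6 and 152. Rab3b was at the floor of 24.6 on all 8 arrays and Vps13c on 7 of 8. A dim probe set limits what can be said of a gene and does not show that it is silent in liver.

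A gene read by a pair of kept probe sets gives a check of its value within each array, a comparison chosen after the values were seen. It could be made for 19 members. The median difference between the 2 deviations, each from its probe set's own median, was 0.58 on the log2 scale on replicate 5, 0.37 on replicate 6 and 0.16 to 0.30 on the other arrays. For all 689 genes with such a pair it was 0.55 on replicate 5 and 0.28 on replicate 6. On replicate 5, 1 probe set was the highest and the other the lowest of its 8 arrays for 5 of 19 members, beside 18.6% of the 689 genes, and both were at the same extreme for 4 members, beside 22.5%.

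Several of the values on replicate 5 given above depended on the probe set. For Sec61a1 the brightest probe set was at its lowest there, 1297, while the other was at its highest, 2322 against 1560 to 2304 elsewhere. Copb2 likewise had 1993 on its brightest probe set, the lowest of 8, and 1207 on its other, the highest of 8. These 2 probe sets of Copb2 carry suffixes that mark sequence shared with other transcripts or probe sets. In the opposite sense, Rab7 was highest on its brightest probe set, 1839, and lowest on the other, 187 against 705 to 1297 elsewhere. Sec23a, at 2424 and 213, and Snx12, at 354 and 118, likewise had the highest value on the brightest probe set and the lowest on the other. Rab10 read 928 and 132, the latter against 516 to 805 elsewhere. Rab6a was lowest on both, with its second probe set at the floor of 24.6. Where each probe set lies along its transcript was not analysed here, and the part of RNA quality in these differences was not tested. Over the 20 pairs of kept probe sets, the correlation over the 8 arrays had a median of 0.09 and was below 0 for 9. This correlation was not computed over the pairs of all genes, so it cannot be called particular to the members. The highest values over 8 arrays were those of Vamp8 (0.86), Sec22b (0.76) and Rab11a (0.75), which were 0.85, 0.45 and 0.32 without replicate 5. Rab10, Snx12 and Rab7 had 0.71, 0.71 and 0.61 without that array, and -0.17, 0.07 and -0.66 with it.

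**Figure D5:**
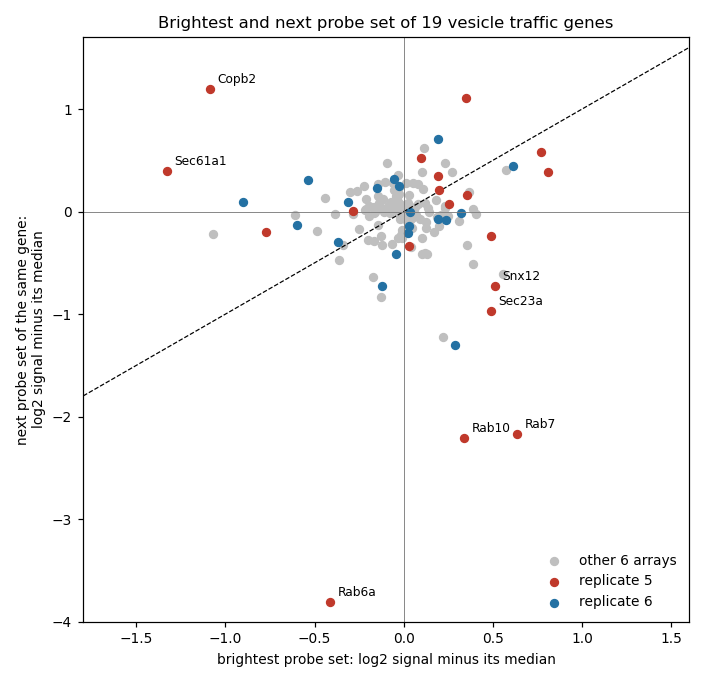
For 19 members, the log2 signal of the brightest probe set minus its median over arrays (x axis) against the same for the next probe set of the gene (y axis), 1 point per gene and array; red is replicate 5, blue replicate 6, grey the other arrays, and the dashed line marks equal values. Several red points lie far from the line, with Sec61a1 and Copb2 at upper left, Rab7, Rab10 and Sec23a at lower right and Rab6a at the bottom, and other red points lie near it.

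Partner genes were set against each other over the 8 arrays in 6 pairs, with exact 2-sided permutation tests over 40320 orders and Benjamini-Hochberg adjustment over the 6. None passed. The pair of Sec61a1 with the chaperone Hspa5 had a Pearson r of 0.90 (exact permutation p 0.0703, adjusted 0.145) and a Spearman rho of 0.48 (exact permutation p 0.243, adjusted 0.598). Without the 2 arrays farthest from the median of Sec61a1, replicates 5 and 6, r was 0.48. Sec61b and Hspa5 had an r of 0.81 (exact permutation p 0.0725, adjusted 0.145) and a rho of 0.17 (exact permutation p 0.703, adjusted 0.793), and r was -0.49 without replicates 5 and 8. For the early and late endosome genes Rab5a and Rab7, r was 0.75 (exact permutation p 0.0724, adjusted 0.145) and rho 0.12 (exact permutation p 0.793, adjusted 0.793), and r was -0.12 without replicates 5 and 7. All 3 coefficients were below 0 without replicate 5 alone.

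For the remaining pairs the Pearson r over 8 arrays was smaller in size. Arf1 and Arf4 had an r of -0.50 (exact permutation p 0.171, adjusted 0.256) and a rho of -0.64 (exact permutation p 0.0962, adjusted 0.577), and r was -0.20 without replicates 5 and 7. The retromer genes Vps26a and Vps35 had an r of 0.40 (exact permutation p 0.325, adjusted 0.390) and a rho of 0.43 (exact permutation p 0.299, adjusted 0.598), and r was 0.17 without replicates 6 and 7. The coat genes Copa and Copb2 had an r of -0.13 (exact permutation p 0.688, adjusted 0.688) and a rho of -0.19 (exact permutation p 0.646, adjusted 0.793), and r was -0.37 without replicates 4 and 6. Recomputed without replicates 5 and 6, r was 0.48 for Sec61a1 and Hspa5, 0.10 for Sec61b and Hspa5, -0.05 for Rab5a and Rab7, -0.67 for Arf1 and Arf4, 0.33 for Vps26a and Vps35 and -0.47 for Copa and Copb2.

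Other genes of the secretory route, listed by function and outside the symbol rule, were counted in the same way. Of 204 genes listed, 148 were on the array and 123 were kept. The F test on limma's prior called 0 of the 123 at an adjusted p of 0.05. It marked 4 at an unadjusted p of 0.05, beside 4.84% of all kept genes. Of the 123, 41 (33.3%) ranged over 2-fold on 8 arrays, beside 37.2%, and 5 (4.07%) without replicates 5 and 6, beside 10.1%. Among 14 kept chaperone and stress genes of the endoplasmic reticulum, 9 were lowest on replicate 5, beside 28.3% of all kept genes, and 3 were highest on it, beside 34.1%. The class median there was -0.33, while the brightest of them, the chaperone Hsp90b1, was highest there at 8518. The disulfide isomerase Pdia4 read 283 on replicate 5 and 829 to 1524 on the others. The translocon-associated Ssr1 read 132 on replicate 5, with 327 to 827 elsewhere, and Rabac1, which binds prenylated Rabs, read 838 on replicate 5 and 2655 to 4218 on the others. In contrast, Gdi2, which extracts Rab proteins from membranes, was highest on replicate 5 at 4049, against 2102 to 3073.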

How the data were processed

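The authors deposited linear intensities per probe set, from arrays scanned on a Hewlett-Packard GeneArray scanner, per the labels. Which software and scaling made them is not given in the sources used here. After trimming 2% at each end, the mean was 500.4 on all 8 arrays. Array medians differed by 26.1%, over the 10% set as the rule, so the 12422 non-control probe sets of 12488 were quantile-normalized, which limits differences among the brightest. Values under the 20th percentile of positive values (24.6) were raised to it before log2. Probe sets above the median mean log2 level (6211) were kept. Of the 12422, 10833 had 1 gene symbol, 396 several and 1193 none, in the platform annotation. All 113 members matched the RefSeq gene table and no symbol changed.

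Variability was tested with limma (3.58.1, R 4.3.3): the log2 variance (7 residual degrees of freedom) over a prior that follows the level (trended, robust; 4.03 prior degrees of freedom, the highest over probe sets), by a 1-sided F test, adjusted by Benjamini-Hochberg over all kept probe sets with a threshold of 0.05. The prior degrees of freedom of each probe set were used in a first run; the highest value replaced them after results were seen, and the first choice is kept as an alternative. The test was tested on simulated data. p-values measure only the spread between these arrays, and the number of arrays limits precision.

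Named genes were, in each class, the 2 brightest and the 2 with the highest variance ratio, members with an unadjusted p under 0.05, the genes of each pair run, and genes whose probe sets correlate below 0; from each other list the brightest and the most variable gene qualified. Other members named in the text were chosen after their values were seen. Members, lists and tests were chosen with earlier results of these data known. Of 7 pairs listed, 6 could be run, since Sec61g has no probe set of its own. Protein sequences and a genome were not used here.

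Results were recomputed without quantile normalization, with the floor raised to the 40th percentile, with the filter dropped or set at the 75th percentile, with probe sets of a gene averaged, with an untrended prior, without shared-sequence probe sets, without each replicate in turn, and without replicates 5 and 6.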

Additional observations from a re-analysis of the deposited data

Results flagged for a closer look

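In 27 of 71 looked at (56 named members and 15 class medians over the 8 arrays), the highest or lowest array lay apart from the rest, with a gap to its nearest neighbour, as a share of the whole range, above Dixon's critical value for 8 samples. Chance flags about 1 in 20, but the named members include genes chosen for their spread. By the same measure 1 array lay apart for 25 of all 87 kept members (28.7%) and for 20.8% of all 4810 kept genes, and that array was replicate 5 for 22 members (25.3%) and 16.2% of genes. Replicate 5 was the outlying array in 22 and replicate 6 in 3.

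Low on replicate 5 were Arf1 (3186), Arf5 (1260), Copb2 (1993), Rab4b (218), Rab5b (45.5), Sec61a1 (1297), Sec61b (1117), Sec63 (65.4), Stx2 (92.9) and Vps37b (41.2). High on replicate 5 were Rab14 (4243), Rab5a (2467), Rab9 (3587), Sec22b (938), Snx3 (5371), Snx4 (1177) and Stx7 (803). Rab1a (444) and Vamp7 (143) were low on replicate 6.

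Among class medians on the log2 scale, those of all kept members (0.18), the late endosome and lysosome Rabs (0.50) and the sorting nexins (0.35) were high on replicate 5, and those of the Arf GTPases (-0.71) and the translocon (-0.48) were low on it. The endoplasmic reticulum and Golgi Rabs were low on replicate 6 (-0.35), the exocytosis Rabs high on replicate 2 (0.41) and the Vps genes low on replicate 7 (-0.31).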

How the results depend on the processing

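The F test on limma's prior called 0 members under all 17 alternatives, and the count past an unadjusted p of 0.05 ran from 0 to 5. The share of members ranging over 2-fold was 36.8%, 10.3% to 35.6% with 1 replicate left out (lowest without replicate 5) and 6.90% when replicates 5 and 6 were left out before normalization. The members' median on replicate 5 was 0.10 with the mean over probe sets. With the deposited scaling the class medians named for replicate 5 kept their sign (Arf GTPases -0.81, translocon -0.48, late endosome and lysosome Rabs 0.52, sorting nexins 0.31). Rab5a and Rab7 had an r of -0.72 when probe sets of a gene were averaged and -0.047 without replicates 5 and 6. With 1 replicate left out, r ran from -0.087 to 0.84 for Rab5a and Rab7, -0.10 to 0.88 for Sec61b and Hspa5, -0.094 to 0.97 for Sec61a1 and Hspa5 (each negative without replicate 5), -0.35 to 0.093 for Copa and Copb2 (positive without replicate 7), 0.26 to 0.69 for Vps26a and Vps35 and -0.60 to -0.42 for Arf1 and Arf4. The cause of these changes with the processing was not tested. Using each probe set's prior degrees of freedom, added after seeing the data, left 0 members called. No paired analysis was possible because the labels give 1 group.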
